A study of Aspergillus nidulans with 6 samples.

Results

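The chitin synthase family of *Aspergillus nidulans* was followed through 6 RNA-seq libraries by 8 identifiers, which were *chsA* (AN7032), *chsB* (AN2523), *chsC* (AN4566), *chsD* (AN1555), *csmA* (AN6318), *csmB* (AN6317), *chsF* (AN1046) and *chsG* (AN4367). All 8 were present among the 10957 genes listed in each library, and all 8 reached a value of 1 in 3 or more libraries, the level needed for the test across strains. The libraries came from the parent TN02A7 (*pyrG89*; *riboB2*; *pyroA4* *nkuA::argB2*; *veA1*), from WSA08, in which *cnaB* is replaced by *pyrG* (Δ*cnaB*), and from LXA05, in which *cchA* is replaced by *pyrG* as well (Δ*cnaB*Δ*cchA*). The gene *cnaB* encodes the regulatory subunit of calcineurin, a calcium-activated phosphatase, and *cchA* encodes a calcium channel. All strains share *pyrG89*, *nkuA::argB2* and *veA1*, where *nkuA* is a gene of nonhomologous end joining that all strains lack, while the genotype given for LXA05 lists neither *riboB2* nor *pyroA4*. Both deletion strains carry a working *pyrG* and the parent does not, so an effect of *pyrG* cannot be told apart from one of the deletion. Each genotype was represented by 1 strain. WSA08 is called the single mutant here and LXA05 the double mutant.

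The cultures grew in glucose minimal medium for 18 h at 37°C and then received 800 mM NaCl, or none, for a further 30 min, giving 6 conditions with 1 library each. The values are normalized RPM (reads per 1000000 assigned to genes, scaled by the authors over both libraries of a strain), with anything below 1 listed as 0. The number of reads behind each value was recovered from the step between values, and came to between 41369564 and 50006318 reads per library. No library of a deletion strain had a *cnaB* value above 0 (4 of 4 listed at 0). The value of *cchA* was 3.56 and 3.96 in the double mutant, against 74.1 or more in the other 4 libraries. The samples are labelled conidia although they were harvested from the 18 h culture. Of 10 conidiation and spore genes listed by symbol 7 were found, and of these *dewA*, a spore wall hydrophobin, was listed at 0 in all 6 libraries and *brlA*, the switch gene of conidiation, did not exceed 4.68. Of the 6 spore genes tested 2 were higher and 1 lower with salt (limma), beside 28.7% and 26.6% of all genes tested. The spore pigment laccase gene *yA* had 12.5 to 14.3 normalized RPM in the control libraries and 227 to 236 in the salt libraries, and *vosA* had 14.0 to 17.4 and 41.6 to 80.2. The regulator *wetA* was lower (log2 fold change -2.83, adjusted *P* = 0.032, limma), with no value above 3.12. The value of *abaA* did not exceed 3.32, and the hydrophobin gene *rodA* had 14.7 in the parent control, was listed at 0 in the control libraries of both deletion strains and had 1.36 to 2.30 in the salt libraries. The part of these in the results for the chitin synthases was not tested.

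Chitin is a polymer of N-acetylglucosamine that stiffens the hyphal wall and forms much of the septum. Chitin synthases are membrane enzymes that join UDP-N-acetylglucosamine into chains and push them out through the membrane. In *A. nidulans*, *chsC* (class I) and *chsA* (class II) have overlapping roles in septum formation and wall integrity, *chsB* (class III) is needed for normal growth of the hyphal tip, and *chsD* (class IV) contributes to conidiation together with *chsA*. The products of *csmA* (class V) and *csmB* (class VI) carry a myosin motor-like domain and have overlapping, essential functions in polarized growth and wall integrity. The RefSeq table of assembly ASM1142v1 gives other symbols to 6 of the 8 identifiers. It calls AN7032 *chsB*, AN2523 *chsG*, AN4566 *chsA*, AN1555 *chsF*, AN6318 *chsE* and AN1046 *chsD*, while AN6317 is *csmB* in both and AN4367 has no symbol there. The names used here are those of the opening list.

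After 30 min of salt, *chsA* and *chsC* rose in all 3 strains, and *chsB*, *chsD*, *csmA*, *csmB* and *chsG* fell in all 3 strains, while *chsF* had few reads and did not pass the test. Tested over the 3 strains with limma, with strain as a block, 2 of 8 members were higher and 5 of 8 lower with salt with the *P* value adjusted by Benjamini-Hochberg (threshold 0.05). Among all 8673 genes tested, 28.7% were higher and 26.6% lower (55.3% in either direction), so a change by this test was common. The 2489 higher and 2306 lower genes became 1937 and 3081 with scaling by library totals, 1571 and 1396 without the libraries of the single mutant, and 1515 and 1172 without those of the double mutant. The median log2 fold change was -1.46 over the 8 members and -0.025 over all genes, and the median size without regard to sign was 1.56 over the members and 0.76 over all genes.

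The class I gene *chsC* had 51.6 normalized RPM in control medium and 219 with salt in the parent, 73.3 and 246 in the single mutant, and 70.6 and 229 in the double mutant. The 3 salt libraries were thus all above the 3 control libraries, by 4.24-fold in the parent, 3.36-fold in the single mutant and 3.25-fold in the double mutant. The share of all genes that separated in this way, here and for *chsA*, *chsD* and *csmA* below, was not counted. By the limma test 55.3% of all genes changed with salt in either direction. Over the strains, the log2 fold change of *chsC* was 1.84 ± 0.13 (SE, n = 3 strains, limma, adjusted *P* = 0.0012). This was higher than that of 88.7% of the genes tested.

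The class II gene *chsA*, its partner in septum formation, went from 48.1 to 121 in the parent (in normalized RPM), from 53.7 to 108 in the single mutant and from 58.9 to 132 in the double mutant. The control and salt values did not overlap. The log2 fold change over the strains was 1.17 ± 0.12 (SE, n = 3 strains, limma, adjusted *P* = 0.0026), and the fold change was 2.52 in the parent, 2.01 in the single mutant and 2.25 in the double mutant. The ratio of *chsC* to *chsA* values was higher with salt than without it in each strain, at 1.8 against 1.07 in the parent, 2.28 against 1.37 in the single mutant and 1.73 against 1.2 in the double mutant.

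**Figure D1:**
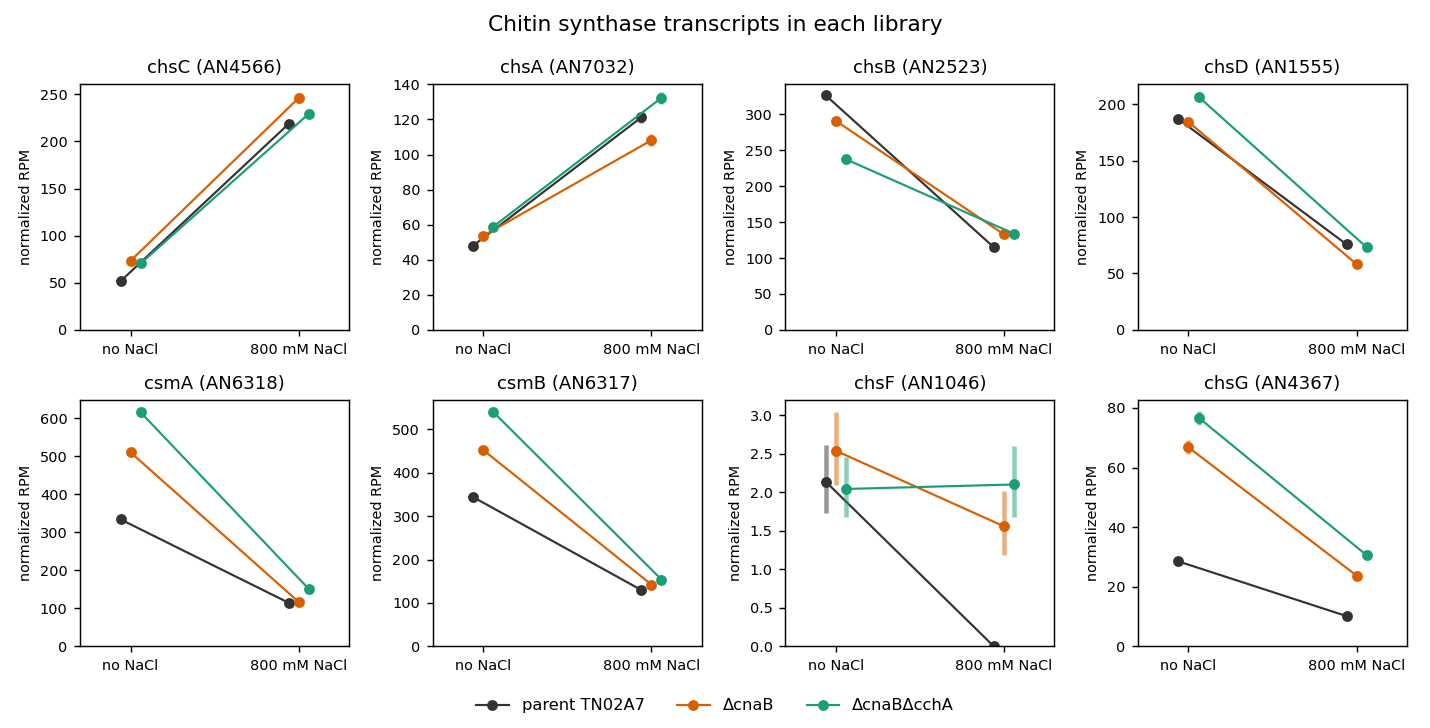
Normalized RPM of the 8 chitin synthase genes in the 6 libraries, with 1 panel per gene, a point per library, a line per strain from the control to the salt library, and a vertical bar for the 95% counting interval, which is mostly smaller than the point. The lines of *chsC* and *chsA* go up in every strain and those of *chsB*, *chsD*, *csmA*, *csmB* and *chsG* go down, while *chsF* stays below 3 and is listed at 0 (below 1) in the salt-treated parent.

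The tip growth gene *chsB* had 326 normalized RPM in the parent, 291 in the single mutant and 237 in the double mutant in control medium, and 115, 133 and 134 in these strains with salt. Its decrease was 2.84-fold in the parent, 2.19-fold in the single mutant and 1.77-fold in the double mutant. The 95% counting intervals of the log2 fold change were -1.55 to -1.46, -1.18 to -1.08 and -0.87 to -0.78 in that order and did not overlap. They cover counting error only, and no replicate culture was analysed. Over the strains the log2 fold change was -1.15 ± 0.16 (SE, n = 3 strains, limma, adjusted *P* = 0.0054).

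The class IV gene *chsD* had 187, 184 and 207 normalized RPM in control medium and 75.8, 58.2 and 73.1 with salt in the parent, the single and the double mutant. The control and salt values did not overlap. Its log2 fold change was -1.49 ± 0.12 (SE, n = 3 strains, limma, adjusted *P* = 0.0016). The gene next to *chsD* in the RefSeq table, AN1554, has the symbol *chs3* there and is not among the 8 identifiers. This gene was added after the reference symbols were seen. It had 114, 95.7 and 99.3 normalized RPM in control medium and 60.5, 52.4 and 61.9 with salt, and its log2 fold change was -0.82 ± 0.12 (SE, n = 3 strains, limma, adjusted *P* = 0.0054).

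By the estimate over the 3 strains, the motor-domain genes fell most among the members that passed the test, although *csmB* fell less than *chsB* and *chsG* in the parent (log2 -1.40 against -1.51 and -1.48). The value of *csmA* was 334 in the parent, 511 in the single mutant and 616 in the double mutant without salt, and 115, 117 and 151 with salt. The 3 control values were all above the 3 salt values. The decrease of *csmA* was 2.91-fold in the parent, 4.37-fold in the single mutant and 4.08-fold in the double mutant, and the log2 fold change over the strains was -1.90 ± 0.15 (SE, n = 3 strains, limma, adjusted *P* = 0.0016). Only 5.88% of the genes tested had a lower one.

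The neighbouring gene *csmB* had 344, 452 and 539 normalized RPM in control medium and 130, 142 and 154 with salt in the same strains. It showed the same order of strains as *csmA* under both treatments, and a log2 fold change of -1.63 ± 0.13 (SE, n = 3 strains, limma, adjusted *P* = 0.0014). The genes *csmA* and *csmB* follow each other in the RefSeq table, and the ratio of *csmA* to *csmB* values stayed between 0.821 and 1.14 over the 6 libraries. AN6319, which lies on the other side of *csmA*, had 23.1, 17.6 and 21.5 normalized RPM in control medium and 5.5, 4.65 and 5.54 with salt. It fell too, with a log2 fold change of -1.96 ± 0.17 (SE, n = 3 strains, limma, adjusted *P* = 0.0017).

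The gene *chsG* had 28.5 normalized RPM in the parent, 66.8 in the single mutant and 76.7 in the double mutant without salt, and 10.2, 23.7 and 30.6 with salt. Its decrease was similar in size in all strains, at 2.80-fold, 2.81-fold and 2.51-fold. The log2 fold change was -1.43 ± 0.13 (SE, n = 3 strains, limma, adjusted *P* = 0.0018). Without the strain block the adjusted *P* value of *chsG* was 0.081, since the spread between strains then counts as error.

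The gene *chsF* was near the limit of listing in every library. It had 2.14, 2.54 and 2.05 normalized RPM without salt in the parent, the single and the double mutant, which stand for 96, 117 and 111 reads. With salt it was listed at 0 in the parent and had 1.56 (59 reads) in the single mutant and 2.10 (85 reads) in the double mutant. The control and salt values of the deletion strains lay within 1 normalized RPM of each other. The limma estimate for *chsF* was -1.71 ± 0.99 (SE, n = 3 strains, adjusted *P* = 0.20), and its size depends on the constant of 0.1 that was added before the logarithm, because the parent has a value listed as 0.

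**Figure D2:**
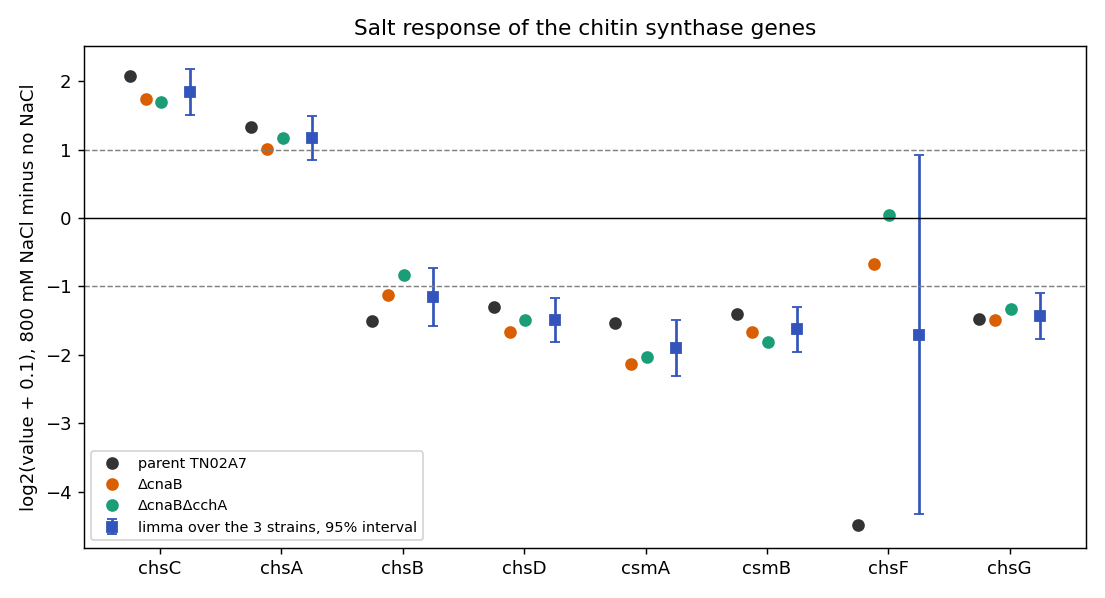
Salt response of each member as log2(value + 0.1) of the salt library minus that of the control library, with a circle per strain and a square for the limma estimate over the 3 strains with its 95% interval (dashed lines at 1 and -1). The intervals of *chsC* and *chsA* lie above 0 and those of *chsB*, *chsD*, *csmA*, *csmB* and *chsG* below 0, while that of *chsF* spans 0 and its parent point at -4.49 comes from a value listed as 0.

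Within single strains, where no test is possible, 2 of 8 members were higher by more than 1 on the log2 scale in each strain, namely *chsA* and *chsC*. In the parent, 22.7% of the genes with a value of 1 or more in either library passed this limit upward and 19.3% downward (42% together). For the single mutant it was 21.9% and 19% (40.8% together), and for the double mutant 21% and 18.8% (39.8% together). The members lower by more than 1 numbered 6 in the parent, 5 in the single mutant and 4 in the double mutant. The sixth in the parent was *chsF* with its value listed as 0, and the member that missed the limit in the double mutant, beside *chsF*, was *chsB* at -0.83. With scaling by library totals *chsB* was at -1.06 in the double mutant and passed the limit, which made 5 members lower there. The *chsA* value in the single mutant was at the limit (1.01), and it fell short with a constant of 1 or with scaling by library totals. Of the 23 pairs of strain and member with reads in both libraries, 22 had a counting interval of the log2 fold change that left out 0, and the other was *chsF* in the double mutant. These intervals cover counting error only and were made for the members alone, so how common this was among all genes is not known.

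The makeup of the family changed with salt. The reads on the 8 genes numbered 59282 in the parent, 75220 in the single mutant and 98085 in the double mutant without salt, and 35379, 31376 and 36618 with salt. They are not corrected for library size, which was 41556203, 41369564 and 50006318 reads without salt and 48597615, 42033846 and 43806131 with salt. Of the reads on the 8 genes, *chsA* and *chsC* together held 7.54% (95% exact Clopper-Pearson interval 7.33% to 7.76%) in the parent, 7.77% (7.58% to 7.97%) in the single mutant and 7.16% (7.004% to 7.33%) in the double mutant without salt. With salt they held 43.3% (42.8% to 43.8%), 42.7% (42.2% to 43.2%) and 39.9% (39.4% to 40.4%). These intervals cover counting error only, not the spread between cultures. They are also too narrow, since the recovered reads exceed the clean reads the study states. All 3 salt libraries were far above all 3 control libraries in this share. As *chsA* and *chsC* are the members that rose while others fell, the larger share restates that result and is no separate support for it. Shares within other gene families were not counted.

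The share of *csmA* and *csmB* together went from 51.3% to 31.2% in the parent, from 58.9% to 31.2% in the single mutant and from 63.9% to 33.7% in the double mutant. Both genes fell with salt, so the smaller share likewise restates that result. The shares differed between strains without salt and lay close together with salt. Reads were not divided by transcript length, so a share of reads is not a share of transcripts and the levels of different members were not compared. A share within a library does not depend on how the libraries were scaled. The summed value of the 8 genes was 1321, 1634 and 1807 normalized RPM in control medium and 785, 830 and 906 with salt in the 3 strains.

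**Figure D3:**
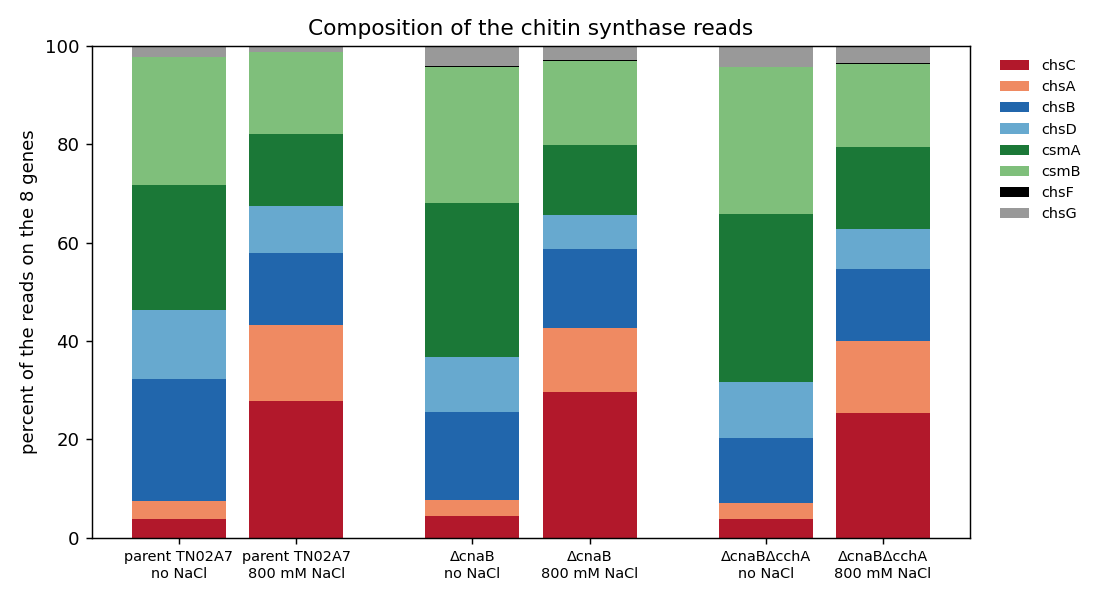
Percent of the reads on the 8 chitin synthase genes held by each gene (stacked bars), for the control and salt library of each strain. The red and orange parts (*chsC* and *chsA*) together grow from 7.16% to 7.77% without salt to 39.9% to 43.3% with salt, and the green parts (*csmA* and *csmB*) shrink in every strain.

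The strains without *cnaB* were compared with the parent over both treatments. Since the authors scaled each strain apart, the recovered reads of all 6 libraries were first put on 1 scale by TMM factors, and 4 libraries of the deletion strains were set against 2 of the parent with treatment as a covariate in limma. No strain term was fitted. Both treatments stood in for replicates of a strain, and both deletion strains for replicates of the deletion. The *P* values of this test therefore do not measure the spread between independent strains or cultures of a genotype. Of the 8 members, 4 (*chsG*, *csmA*, *csmB* and *chsC*) were higher in the deletion strains and 0 lower at an adjusted *P* value under 0.05, beside 12% of 8673 genes higher and 4.54% lower (16.5% in either direction). These were 1038 and 394 genes, against 728 and 2003 under the authors' scaling, 342 and 51 without the single mutant and 297 and 74 without the double mutant. Of the members only *chsG* was called in these 3 settings. The median log2 difference was 0.63 over the members and 0.024 over all genes. With no adjustment, 3225 genes had a *P* value under 0.05.

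The clearest of these was *chsG*. On the common scale it had 25.1 normalized RPM in the parent, 70.8 in the single mutant and 82.1 in the double mutant without salt, and 8.77, 25.5 and 33.3 with salt. Each deletion strain was between 2.82-fold and 3.8-fold above the parent under the same treatment. The log2 difference of *chsG* was 1.66 ± 0.16 (SE, n = 4 against 2 libraries, limma, adjusted *P* = 0.0050), and it passed the threshold under all 8 alternatives, with adjusted *P* values of 0.0036 to 0.032.

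For *csmA* the values on the common scale were 294 in the parent, 541 in the single mutant and 659 in the double mutant without salt, and 98.9, 125 and 165 with salt. The strains kept this order under both treatments, and the log2 difference was 0.78 ± 0.19 (SE, n = 4 against 2 libraries, limma, adjusted *P* = 0.047). For *csmB* they were 302, 479 and 577 without salt and 112, 153 and 168 with salt, and the log2 difference was 0.66 ± 0.14 (SE, n = 4 against 2 libraries, limma, adjusted *P* = 0.033). For *chsC* they were 45.4, 77.7 and 75.5 without salt and 188, 264 and 250 with salt, and the log2 difference was 0.60 ± 0.12 (SE, n = 4 against 2 libraries, limma, adjusted *P* = 0.029).

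The calls for *csmA*, *csmB* and *chsC* held under 4 of the 8 alternatives and were lost under the others, namely with either deletion strain left out, with the authors' scaling and with library totals. Their adjusted *P* values without the single mutant were 0.088, 0.13 and 0.22, and without the double mutant 0.23, 0.22 and 0.20. The log2 differences were then 0.95, 0.76 and 0.57 without the single mutant and 0.61, 0.56 and 0.63 without the double mutant. The authors' scaling moved the median log2 difference of all genes to -0.27. Relative to that median, *csmA* was at 0.75, *csmB* at 0.62 and *chsC* at 0.57 there, against 0.76, 0.63 and 0.58 on the common scale.

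The other members did not pass. The log2 difference was 0.41 ± 0.14 for *chsA* (adjusted *P* = 0.099), 0.25 ± 0.17 for *chsB* (adjusted *P* = 0.32) and 0.23 ± 0.15 for *chsD* (adjusted *P* = 0.31, all SE, n = 4 against 2 libraries, limma). The sign of *chsB* and *chsD* changed with the scaling, to -0.048 and -0.076 under the authors' scaling. For *chsF* the difference was 2.36 ± 0.92 (SE, limma, adjusted *P* = 0.13), which rests on the value listed as 0 in the salt-treated parent.

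**Figure D4:**
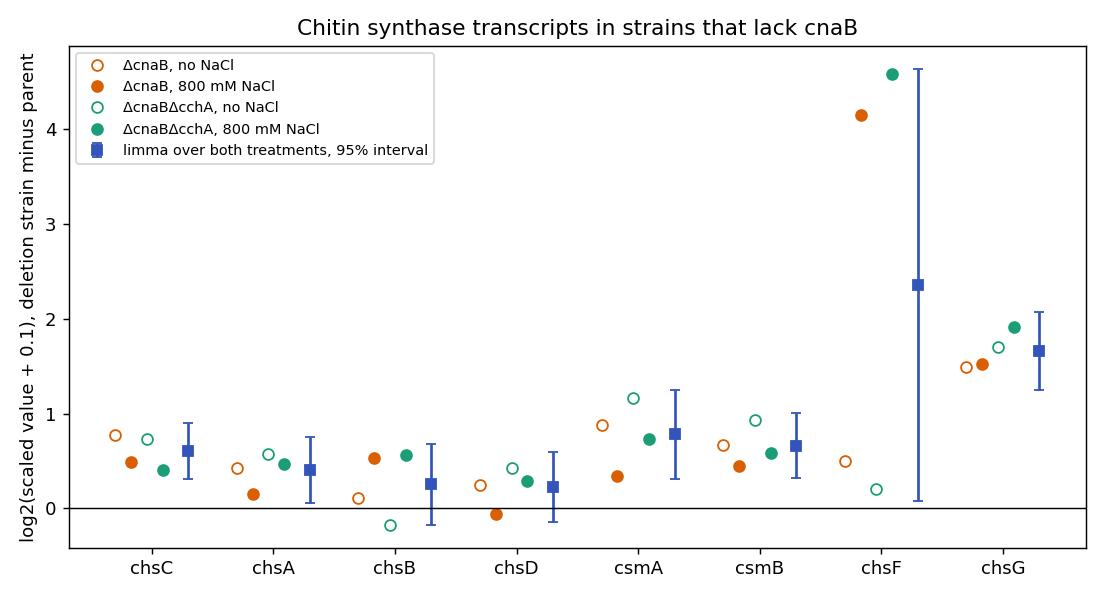
Difference of log2(value + 0.1) between each deletion strain and the parent under the same treatment, on the common TMM scale, with open circles for libraries without salt, filled circles for salt libraries and squares for the limma estimate with its 95% interval. The 4 points of *chsG* lie between 1.49 and 1.91, above the points of all other members except the salt points of *chsF*. Those lie higher, at 4.15 and 4.58, and rest on a parent value listed as 0.

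Between the deletion strains there was 1 library for each treatment and no test. On the log2 scale, the double minus the single mutant was 0.28 without salt and 0.39 with salt for *csmA*, 0.27 and 0.14 for *csmB*, and 0.21 and 0.39 for *chsG*. For *chsC* it was -0.041 and -0.079, and for *chsB* -0.28 and 0.034. None of the 8 members reached a difference of 0.5 in size between these strains under either treatment. How many of all genes did so was not counted.

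Whether the salt response itself differed between the parent and the deletion strains was tested as an interaction in limma, which leaves 1 residual degree of freedom per gene before moderation. Of the 8 members, 0 passed at an adjusted *P* value under 0.05, beside 0.0115% of all 8673 genes higher and 0.0346% lower (0.0461% in either direction), and of all genes 2265 had an unadjusted *P* value under 0.05. The 1 gene higher and 3 lower became 270 and 247 with a constant of 1, and 69 and 98 with limma-voom on the recovered reads. The salt response of *csmA* was more negative in the deletion strains than in the parent by -0.54 ± 0.16 on the log2 scale (95% interval -0.98 to -0.088, unadjusted *P* = 0.030, adjusted *P* = 0.15, limma). For *chsB* the difference was 0.53 ± 0.20 (95% interval -0.037 to 1.09, adjusted *P* = 0.21, limma), a smaller decrease in both deletion strains than in the parent. Those of *chsC* (-0.36), *csmB* (-0.33), *chsD* (-0.28), *chsA* (-0.24) and *chsG* (0.071) had intervals that included 0. For *chsF* the difference was 4.17 ± 0.68 (unadjusted *P* = 0.0040, adjusted *P* = 0.076, limma), and it passed only with limma-voom on the recovered reads (adjusted *P* = 0.044), with the same value listed as 0 in the parent.

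For other genes of chitin supply and turnover, 14 symbols were listed, some of them synonyms of the same gene. Of these symbols 2 were found in the RefSeq table, and both genes were lower with salt, as were 26.6% of all genes tested. The gene *gfa1* (AN10709), for the amidotransferase that commits fructose 6-phosphate to the amino sugar pathway, had 1206, 1053 and 1064 normalized RPM in control medium and 395, 324 and 436 with salt in the parent, the single and the double mutant. Its log2 fold change was -1.53 ± 0.13 (SE, n = 3 strains, limma, adjusted *P* = 0.0017). The gene *agm1* (AN4234), for phosphoacetylglucosamine mutase in the same pathway, had 212, 166 and 148 without salt and 130, 77.9 and 85.5 with salt, and a log2 fold change of -0.86 ± 0.13 (SE, n = 3 strains, limma, adjusted *P* = 0.0059). Neither differed between the deletion strains and the parent by the test (adjusted *P* = 0.47 and 0.18, limma).

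A further symbol, *chiA1* (AN8241), a chitinase gene known from *A. fumigatus*, was added after the reference symbols were seen. It had 5.26, 26.5 and 35.1 normalized RPM in control medium and 8.23, 20.5 and 32.9 with salt. It was higher in the deletion strains, as *chsG* was, by 2.38 ± 0.30 on the log2 scale (SE, n = 4 against 2 libraries, limma, adjusted *P* = 0.0089). With salt its log2 fold change was 0.059 ± 0.24 (SE, n = 3 strains, limma, adjusted *P* = 0.85).

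Of 5 genes for other wall polymers that were added in the same way, 3 were lower and 0 higher with salt by the limma test, beside 26.6% and 28.7% of all genes. The largest change was in *ags1* (AN3307), an α-glucan synthase gene in *A. fumigatus*, which went from 376 to 91.4 in the parent (in normalized RPM), from 727 to 49.2 in the single mutant and from 934 to 88.3 in the double mutant. The others were *ags2* (AN5885, log2 fold change -1.28) and *gel1* (AN7657, -1.21), a glucanosyltransferase gene in *A. fumigatus*. Not called were *gel2* (AN0558, -0.30, adjusted *P* = 0.25) and *glfB* (AN3113, 0.40, adjusted *P* = 0.17, both limma). Against the parent, 1 of these 5 genes was higher and 0 lower in the deletion strains, beside 12% and 4.54% of all genes. It was *gel1*, by 0.65 ± 0.13 on the log2 scale (SE, n = 4 against 2 libraries, limma, adjusted *P* = 0.031). None of the 12 symbols first listed for this group was in the table. The septin gene *aspB* (AN6688), which acts in septation, was the 1 match of 4 myosin and septum symbols and fell, with a log2 fold change of -1.06 ± 0.17 (SE, n = 3 strains, limma, adjusted *P* = 0.0078).

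In the wall integrity and calcineurin group, 3 of 8 symbols were found, with 1 higher and 1 lower with salt, which is near the shares of all genes (28.7% and 26.6%). The kinase gene *pkcA* (AN0106) was higher by 0.40 ± 0.11 (adjusted *P* = 0.036) and *rlmA* (AN2984), for a transcription factor of the pathway, lower by a log2 fold change of -0.92 ± 0.27 (adjusted *P* = 0.043, both SE, n = 3 strains, limma). For *crzA* (AN5726), the transcription factor that calcineurin acts on, the log2 fold change was -0.11 ± 0.24 (adjusted *P* = 0.72, limma). Of the added symbols *bck1*, *rho1* and *rom2*, 0 of 3 passed with the adjusted *P* value, and *rom2* had an unadjusted *P* value of 0.048.

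By the shape of their profile over the 6 libraries, the genes most like each member were AN2894 for *chsC*, AN4238 (*schA*) for *chsA*, AN5753 for *chsB*, AN5210 for *chsD*, AN8903 for *csmA*, AN9348 for *csmB* and AN11200 for *chsG*. These were taken from 7867 genes that reached 1 normalized RPM in all 6 libraries, and the Pearson correlations over the 6 log2 values were 0.997 or higher. A correlation does not weigh the size of a change. With salt the log2 fold change of AN2894 was 7.02 against 1.84 for *chsC*, and that of AN5210 was -1.70 against -1.49 for *chsD* (limma). Such likeness was common. For *chsC* 870 genes had a correlation of 0.95 or more, and for *chsG* 129 did, the fewest of the 7 members. The 6 points share the salt contrast, the strains and the scaling, and the correlations are given as a description with no *P* value.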

How the data were processed

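RNA was sequenced from 6 cultures (3 strains, each with salt and with none). The authors cleaned the reads of adapters and poor bases, mapped with TopHat, counted per gene with RSEM and normalized with TMM. The deposited values are a signal per gene, TMM-normalized RPM, although the column heading says read count. Values below 1 are listed as 0, and empty cells were treated as 0. Every nonzero value was within 0.001 reads of a whole multiple of the value of 1 read (100% per library), which gave the recovered reads. These exceed the clean reads the study states, so counting intervals (95%, exact Clopper-Pearson, counting error only) are too narrow. Strandedness is not given in the sources used here.

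Log2(value + 0.1) was compared with limma 3.58.1 in R 4.3.3 (trend, two-sided, Benjamini-Hochberg over 8673 genes with at least 1 in 3 libraries). With 1 library per strain and treatment, the 3 strains stood in for replicates of a treatment. For the deletion effect, both treatments stood in for replicates of a strain, and both deletion strains for replicates of the deletion. The TMM factors over 6 libraries used trims of 0.3 and 0.05. Steps were run on simulated data without strain effects, which does not show how the tests behave in these data. The values are not counts, so limma on log2 values was used, and limma-voom on the recovered reads was an alternative. The members and lists were chosen with earlier results of these data known. The genes named are the 8 members, the deleted genes, the listed symbols and the nearest profile per member whose log2 range exceeded 1. Symbols came from the RefSeq table of ASM1142v1, which matched 10029 identifiers. The authors' assembly was another one, so no coordinates or lengths were used, and no sequences were analysed here.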

Additional observations from a re-analysis of the deposited data

Results flagged for a closer look

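The salt response of *chsF* had different signs in the strains, with a log2 difference of -4.49 in the parent, -0.67 in the single mutant and 0.039 in the double mutant. The parent value rests on a salt library listed at 0, and the 95% counting interval in the double mutant, -0.38 to 0.46, included 0. The difference between the single mutant and the double mutant was not tested, and that between the parent and both deletion strains had an adjusted *P* value of 0.076 in limma.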

How the results depend on the processing

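The salt calls of *chsA*, *chsB*, *chsC*, *chsD*, *csmA* and *csmB* held under all 10 alternatives, with log2 fold changes of 0.92 to 1.25, -1.41 to -0.98, 1.59 to 1.91, -1.74 to -1.40, -2.15 to -1.78 and -1.88 to -1.53. Library totals moved the median of all genes to -0.28. With each strain's pair left out in turn, genes higher with salt numbered 1515 to 2635 and lower 1172 to 2618. Without the strain block 1256 were lower. The salt test paired the libraries of each strain through the strain block, since the labels give no replicate numbers. For the deletion effect, leaving out a deletion strain gave 297 to 342 genes higher, 51 to 74 lower and 1 member higher (*chsG*). The authors' scaling and library totals (added after seeing the data) gave 2003 and 1971 genes lower and 1 member higher, and *chsB* (-0.048 in both) and *chsD* (-0.076 in both) changed sign. For the interaction, 1 gene was higher and 3 lower. These numbers were 270 and 247 with a constant of 1, 0 and 0 with any value above 0 (limma, 2124 genes at an unadjusted *P* under 0.05), 2 and 8 with library totals, and 69 and 98 with limma-voom on recovered reads, where 1 member (*chsF*) was higher. Both of the last settings were added after seeing the data, and the cause of these shifts was not tested. Within strains, a limit of 2 left 1078 genes higher and 608 lower in the parent, 969 and 599 in the single mutant, and 929 and 508 in the double mutant. Members past it numbered 1 higher and 1 lower in the parent, 0 and 1 in the single mutant, and 0 and 1 in the double mutant. With library totals 1 member was higher in each deletion strain, and with a constant of 1 it was 1 in the single mutant. With 50% of the reads the number of counting intervals that left out 0 was 22, as before. The planned edgeR and DESeq2 fits were not run, because the deposited values are not counts. A gene below 1 normalized RPM, up to about 38 to 55 reads, is listed at 0, which limits *chsF*.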
